A study of Mus musculus with 27 samples.

Results

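The genes described here are 143 mouse protein-coding genes, chosen by the share that their polyadenylated transcripts took of each fraction's libraries. In embryonic stem cells this share was larger in cytoplasm than on chromatin, and in cortical neurons it was larger on chromatin than in cytoplasm. The genes were chosen from read counts per gene, scaled to each library's total (CPM), averaged over 3 libraries with 0.1 CPM added. CPM is a share of its own library, so it does not give the amount of RNA in a fraction. Higher or lower between fractions refers to this share throughout. Whether reads in introns were counted is not stated, so a CPM value may include unspliced RNA. The log2 ratio of chromatin to cytoplasm had to be at most -0.5 in stem cells and at least 1 in neurons, with a mean of at least 5 CPM in stem cell cytoplasm and in neuronal chromatin. Of 37332 genes in the count table, 8377 protein-coding genes met both level minimums, and the 143 genes are 1.71% of these. A further 3 genes met every number of the rule but belong to gene families that the rule leaves out by symbol. Because the rule read the chromatin and cytoplasm values of stem cells and neurons, those values are given as a description without a test. Tests were made only in neural progenitor cells and in the nucleoplasm, which the rule did not use.

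The study separated 3 mouse cell types into chromatin, nucleoplasm and cytoplasm and sequenced the polyadenylated RNA of each fraction. Embryonic stem cells of the E14 line were grown on gelatin with LIF (mESC). Neural progenitors (mNPC) were a line derived by the submitters, which received EGF and FGF, each at 10.0 ng/ml. Cortical neurons were primary cells, cultured for 5 days (mCtx). With 3 biological replicates in each of 9 groups there are 27 libraries. No group carries a transgene, a deletion or a drug, and the mNPC values describe 1 line. RNA longer than 200 nt was selected with oligo-dT and read as stranded pairs of 100 bp.

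A transcript made in the nucleus is spliced, cleaved and polyadenylated while it is still attached to chromatin, is released into the nucleoplasm and then exported through nuclear pores. Polyadenylated RNA that stays on chromatin is often incompletely spliced, and retained or detained introns are a known reason for such RNA to stay in the nucleus. During neuronal differentiation, cells leave the cell cycle and reduce ribosome production and nucleotide synthesis, and several RNA-processing factors change.

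Library totals ran from 10622897 to 24537526 counts. Summed over 10 genes of pluripotency, CPM was 2675 to 5682 in mESC libraries and at most 4.29 elsewhere, and 15 cortical neuron markers summed to 5425 or more in every mCtx library and to 1584 or less elsewhere. Progenitor markers (10 genes) summed to 3222 to 7572 CPM in mNPC, 477 to 1688 CPM in mCtx and 290 to 712 CPM in mESC. In mCtx, markers of astrocytes (8 genes) summed to 376 to 580 CPM and of inhibitory neurons (9 genes) to 170 to 482 CPM, beside 120 to 793 and 8.17 to 42.1 CPM in mESC. In mNPC these 2 sums were 1568 to 4647 and 2.92 to 20.3 CPM. Oligodendrocyte lineage markers (9 genes) summed to 1323 to 3165 CPM in mNPC, 100 to 283 CPM in mCtx and 5.33 to 112 CPM in mESC. Of these, Olig2 is also among the progenitor markers, and Mog and Mag were lower in mNPC than in mESC. Microglial markers (10 genes) summed to 39.5 to 92.1 CPM in mESC and 41.7 to 77.0 CPM in mCtx. Most of both sums was Cx3cr1, with group means of 45.3 to 74.4 CPM in mESC and 35.7 to 47.1 CPM in mCtx. In cytoplasm, C1qa, C1qb, C1qc, Tyrobp and Trem2 had means of 4.33 to 7.88 CPM in mCtx and at most 0.0657 CPM in mESC. Itgam went the other way, at 0.651 and 1.04 CPM. The progenitor marker Nes is itself among the 143 genes. The part of such other cells in the values below was not tested, and with bulk fractions fewer cells of a type and less RNA per cell cannot be told apart. Library 1 was the lowest of the 3 mESC nucleoplasm libraries in 105 of the 143 genes (73.4%, against 43.9% of the 8377 genes), and library 3 the lowest of the mNPC cytoplasm libraries in 107 (74.8%, against 44.5%). Leaving out the mESC libraries numbered 1 gave 141 genes by the same rule, of which 132 were among the 143.

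The median log2 chromatin-to-cytoplasm ratio of the 143 genes was -0.85 in mESC, 0.34 in mNPC and 1.30 in mCtx. The first and the last of these follow from the limits of the rule. Over the 8377 genes the medians were 0.25, 0.18 and 0.20. In mNPC the ratio lay between the mESC and mCtx ratios in 135 of the 143 genes, above the mCtx ratio in 6 and below the mESC ratio in 2. The rule set those 2 ends apart, so a place between them follows in part from the choice of genes. In mNPC 23 genes reached a ratio of 1 and 9 stayed at -0.5 or less, while 111 lay in between. Of the 8377 genes, 2393 reached 1 in mNPC and 2761 were at -0.5 or less. All 3 chromatin libraries were below all 3 cytoplasm libraries in mESC for 134 genes, and in the reverse order in mCtx for all 143. The rule read these same libraries, so this separation follows in part from the choice of genes. It was not counted over the 8377 genes, so nothing is read from it.

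**Figure D1:**
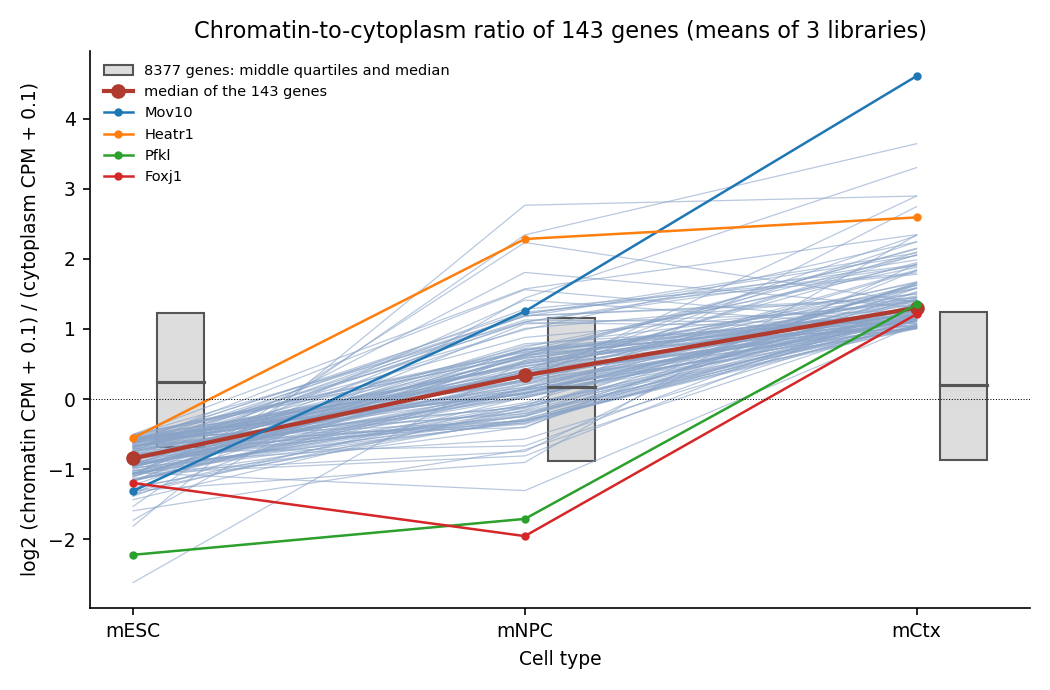
Log2 ratio of chromatin to cytoplasm CPM (vertical axis, means of 3 libraries with 0.1 CPM added) in mESC, mNPC and mCtx. Thin lines are the 143 genes, the thick line is their median (-0.85, 0.34 and 1.30), and grey boxes show the middle quartiles and the median of the 8377 genes that met the level minimums. Mov10 and Heatr1 are above 1 in mNPC, whereas Pfkl and Foxj1 are below -1 there and above 1 only in mCtx.

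The 2 sides of the ratio did not move equally between the end points, in values that the rule itself read. From mESC to mCtx the cytoplasmic level was lower in 127 of the 143 genes, with a median log2 difference of -2.22, whereas the chromatin level had a median difference of 0.02 and was higher in 73 genes. The 8377 genes had medians of -0.14 in cytoplasm and -0.22 on chromatin. The larger difference in cytoplasm was not particular to the set. Genes chosen by the reverse rule (446 genes) had medians of 2.76 in cytoplasm and -0.24 on chromatin. The chromatin level was higher and the cytoplasmic level lower in 57 genes, both were lower in 70, and both were higher in 16. In mCtx, nucleoplasm was above cytoplasm in 130 genes and below it in 13, beside 3701 and 4676 of the 8377 genes. The median log2 ratio of the set was 0.87. The cytoplasm values in that ratio are those the rule used, so nothing is read from its size.

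The word chromatin-held describes most but not all of the set. In mCtx, chromatin was above nucleoplasm in 120 genes and below it in 23, beside 5108 and 3269 of the 8377 genes. The rule asked for high values on mCtx chromatin, so the count of 120 follows in part from the choice of genes. In CPM the 23 genes with chromatin below nucleoplasm were highest in nucleoplasm, the soluble part of the nucleus. Cltc, which encodes clathrin heavy chain of coated vesicles, had 257, 210.1 and 223 CPM on mCtx chromatin and 111, 79.2 and 109 CPM in cytoplasm, but 743, 651 and 642 CPM in nucleoplasm. None of the 3 fractions of Cltc overlapped with another in mCtx. The genes nearest to the limits were Sart1 and Wdr3, inside at mESC ratios of -0.5055 and -0.5039, and Spata5 and Map2k3, inside at mCtx ratios of 1.0046 each. Just outside were Ak7 and Ifrd2, at -0.4997 and -0.4964 in mESC, and Wdr6 and Wdr36, at 0.9858 and 0.9896 in mCtx.

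Mov10, an RNA helicase that acts in RNA silencing and against retrotransposons, had the largest shift of ratio, from -1.31 in mESC to 4.61 in mCtx. The gene lies at chr3:104794836-104818563 on the minus strand (mm10, as are all positions here). In the 3 mESC libraries its cytoplasmic level was 228, 241 and 240.5 CPM and its chromatin level 101, 93.7 and 91.6 CPM. The mCtx cytoplasm held 3.65, 3.72 and 4.16 CPM and mCtx chromatin 97.8, 95.3 and 95 CPM. Chromatin levels of Mov10 were thus alike in both cell types while the cytoplasmic values lay far apart. In mNPC, Mov10 had 35.5, 36.9 and 40.6 CPM on chromatin and 15.2, 15.6 and 16.5 CPM in cytoplasm, again without overlap. The fitted log2 fold change there was 0.94 ± 0.13 (SE; edgeR quasi-likelihood test, adjusted p = 4.2e-07), which is just under the minimum of 1 used for a call and rises to 1.26 when libraries are scaled by their totals alone. Among all genes tested, those whose 9 group means were most like Mov10 on a log2 scale were Xrcc6, Echdc2 and Dvl2, each with a Pearson r of 0.96 over 9 groups that share libraries. Xrcc6 and Dvl2 belong to the 143 genes.

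Crabp2, Dnd1, Misp and Sfn had shifts of 5.17, 4.71, 3.84 and 3.74, but each had a mean under 10 CPM in mESC cytoplasm or on mCtx chromatin. Of the genes with at least 10 CPM in both and no overlap of the fractions, those with the next largest shifts are described here. Mars encodes the cytosolic methionyl-tRNA synthetase. In mESC it had 484, 454 and 466 CPM in cytoplasm and 188, 168 and 181 CPM on chromatin, and in mCtx 49.4, 51.6 and 53.5 CPM in cytoplasm and 205, 223 and 214 CPM on chromatin. The mCtx cytoplasm was the lowest of these groups by a wide margin, and the chromatin groups were close to each other. Cad, the enzyme of the first steps of pyrimidine synthesis, was lower in mCtx in both fractions. Its cytoplasm held 447, 678 and 667 CPM in mESC and 17.4, 20.1 and 19.9 CPM in mCtx, and its chromatin 213, 315 and 301 CPM and 85.8, 86.1 and 81.9 CPM. No mCtx library of Cad reached any mESC library of the same fraction.

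Amt, the aminomethyltransferase of the glycine cleavage system, showed the opposite on chromatin. Its chromatin level was 31.3, 24.7 and 27.6 CPM in mESC and 111, 110.4 and 106 CPM in mCtx, against 54.3, 58.5 and 62.6 and 14.7, 16.5 and 17.4 CPM in cytoplasm. Flii, a gelsolin-family regulator of actin, likewise had more chromatin RNA in mCtx, with 189, 202 and 191 CPM against 87.2, 68.6 and 71.9 CPM, and less in cytoplasm, with 34.2, 45.3 and 43 CPM against 177, 150.1 and 157 CPM. For both genes the groups compared did not overlap.

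Anxa6, a calcium-dependent membrane-binding annexin, kept a nearly level chromatin signal, with 85, 74.1 and 68.6 CPM in mESC and 73.5, 76.6 and 73.8 CPM in mCtx. Its cytoplasm held 207, 184 and 174 CPM in mESC and 15.6, 15.6 and 12.7 CPM in mCtx. The cytoplasmic groups stood apart while the chromatin groups overlapped. Lrp1b, a large receptor of the LDL receptor family, had 3.92, 2.22 and 3.06 CPM on mESC chromatin and 46.7, 44.5 and 51 CPM on mCtx chromatin, without overlap. Its cytoplasm had 9.19, 11.7 and 10.3 CPM in mESC and 5.89, 3.72 and 4.52 CPM in mCtx. A pseudogene inside Lrp1b on the same strand had 20.0% as many counts, so its values are uncertain.

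**Figure D2:**
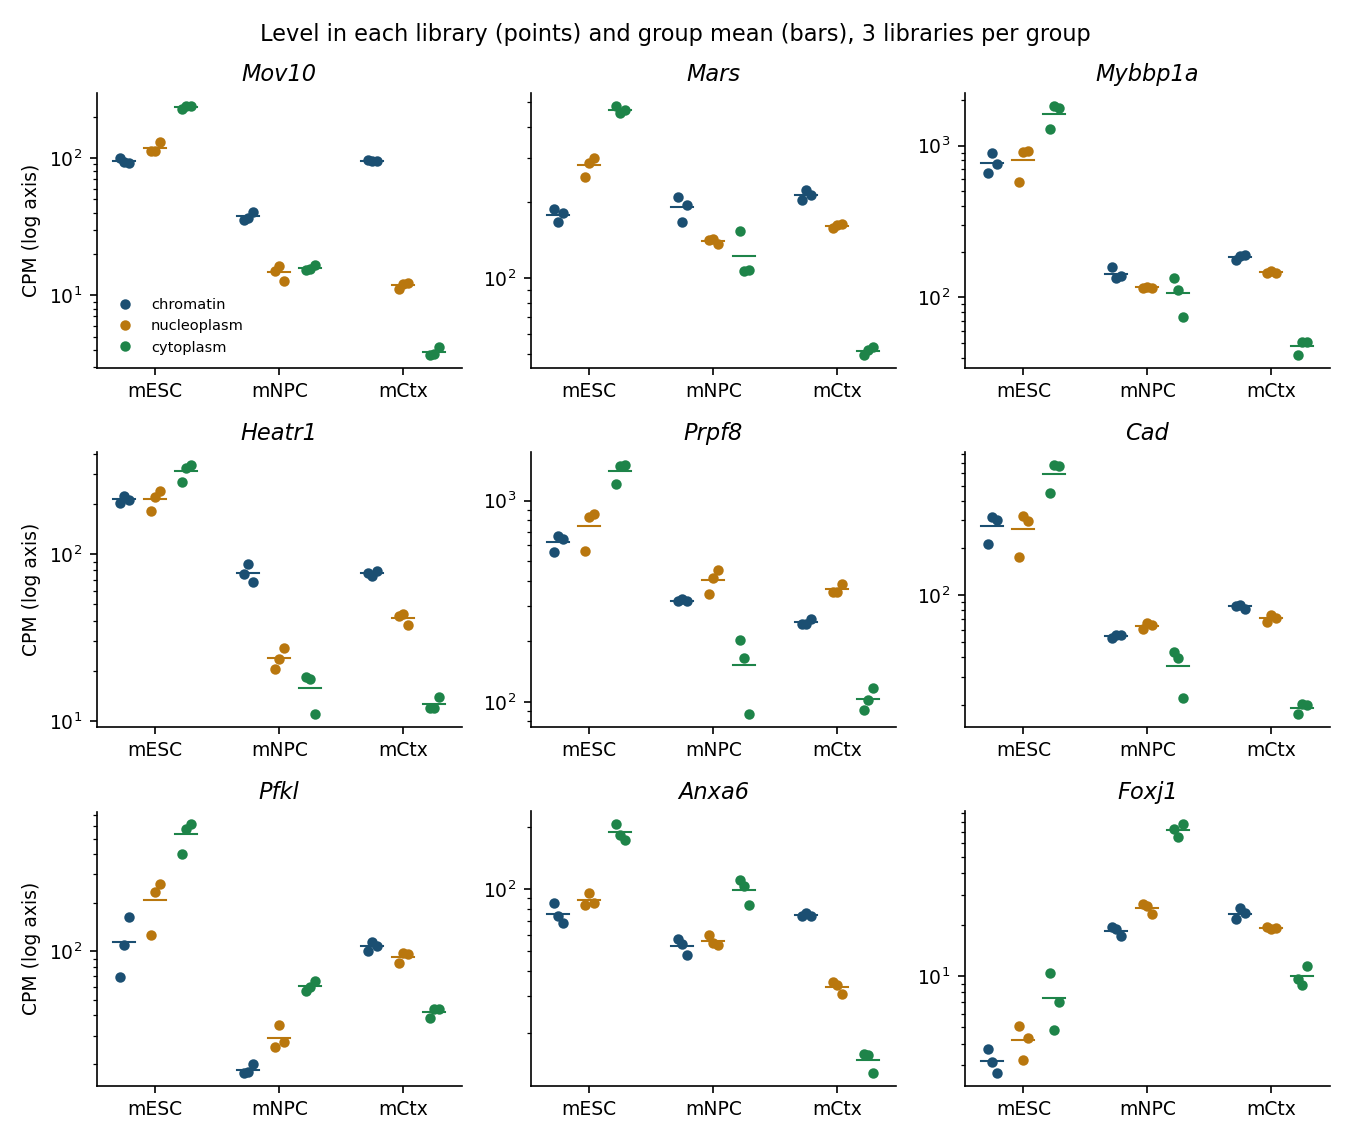
CPM on a log axis for 9 genes of the set, with 1 point per library, a bar at the mean of 3 libraries, and colours for chromatin, nucleoplasm and cytoplasm. In every panel the mESC cytoplasm points are above the mESC chromatin points and the mCtx chromatin points are above the mCtx cytoplasm points. The mNPC points follow the mCtx order in Mov10 and Heatr1 and the mESC order in Pfkl, Anxa6 and Foxj1.

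Progenitor cells gave the first test outside the rule. With edgeR's quasi-likelihood test and Benjamini-Hochberg adjustment over 18226 genes, and a call at an adjusted p under 0.05 and a fitted log2 fold change of at least 1 in size, 9 of the 143 genes were higher on mNPC chromatin than in mNPC cytoplasm, where 27.5% of all genes tested were called higher. A further 7 were lower, where 21.3% of all were. The other 127 genes (88.8%) were called in neither direction, beside 51.1% of all genes tested. The median fitted log2 fold change was 0.02 in the set, 0.12 over all genes tested and -0.14 over the 8377 genes. Scaled by library totals alone, the scale on which the rule was written, 23 were called higher and 3 lower, against 33.6% and 16.9% of all genes. That scaling moves the median of all genes tested from 0.12 to 0.43.

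The 9 genes called higher were Adamts3, Crabp2, Dnd1, Heatr1, Lrp1b, Mon1a, Mvp, Nos1ap and Wdr3. Heatr1, a protein of the small ribosomal subunit processome (chr13:12395398-12438677, plus strand), had 76.4, 87.5 and 67.7 CPM on mNPC chromatin and 18.3, 18 and 11 CPM in cytoplasm. These groups did not overlap, and the fitted log2 fold change was 1.97 ± 0.18 (edgeR adjusted p = 2.7e-10). Dnd1, an RNA-binding protein of germ cells, had the largest change of the set at 2.57 ± 0.34 (edgeR adjusted p = 2.1e-07). Its levels were low, with 3.84, 4.63 and 4.14 CPM on chromatin and 0.762, 0.545 and 0.291 CPM in cytoplasm. Crabp2, a carrier of retinoic acid, was similarly low, at 3.17, 3.07 and 4.39 CPM on chromatin and 0.508, 0.763 and 0.583 CPM in cytoplasm, with a fitted log2 fold change of 2.19 ± 0.34 (edgeR adjusted p = 2.5e-06).

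Mvp, the major vault protein, had 20.6, 20.6 and 23.4 CPM on mNPC chromatin and 4.91, 4.58 and 4.01 CPM in cytoplasm, for a fitted log2 fold change of 1.93 ± 0.25 (edgeR adjusted p = 1.1e-07). The genes Pagr1a and Pagr1b overlap Mvp on the same strand and had 319% and 96.4% as many counts, so the Mvp values are uncertain. The change in Lrp1b was 1.15 ± 0.20 (edgeR adjusted p = 1.5e-05), with 12.4, 11.7 and 13 CPM on chromatin and 3.90, 4.42 and 5.17 CPM in cytoplasm.

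The 7 genes called lower on mNPC chromatin were Alas1, Ankrd13a, Anxa6, Cyfip1, Foxj1, Hadha and Pfkl, and so kept the mESC order in progenitors by the main fit. Of these 7, library totals alone again called 3 lower and limma on log2(TPM + 1) called 1 lower. Of the 9 called higher, the same settings again called 9 and 6 higher. Foxj1, a transcription factor of motile cilia, had 19.4, 18.9 and 17.1 CPM on chromatin and 72.2, 65.6 and 77.7 CPM in cytoplasm. Its fitted log2 fold change was -2.27 ± 0.17 (edgeR adjusted p = 5.8e-12), whereas in mCtx chromatin, at 21.4, 24.9 and 23.3 CPM, was above cytoplasm, at 9.61, 8.88 and 11.4 CPM. Ankrd13a, an ankyrin-repeat protein that binds ubiquitin, had 50.5, 50.004 and 51.9 CPM on chromatin and 125, 125 and 127 CPM in cytoplasm, a change of -1.62 ± 0.10 (edgeR adjusted p = 2.8e-13). Anxa6 had 57, 53.9 and 47.5 CPM and 110.2, 103 and 83.5 CPM, a change of -1.22 ± 0.12 (edgeR adjusted p = 1.2e-09). In all 3 genes every chromatin library was below every cytoplasm library.

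Pfkl, the liver form of phosphofructokinase, had 17.5, 17.9 and 20.05 CPM on mNPC chromatin and 56.6, 59.7 and 65.8 CPM in cytoplasm. The fitted log2 fold change was -2.03 ± 0.29 (edgeR adjusted p = 5.4e-07). In the deposited TPM table the difference had the other sign, at 0.29 on the log2(TPM + 1) scale. Of the remaining genes with large end-point shifts, Mars (0.32 ± 0.14), Cad (0.32 ± 0.24), Amt (-0.43 ± 0.14), Flii (0.07 ± 0.13) and Mybbp1a (0.11 ± 0.21) were called in neither direction. In TPM all 5 were called higher on chromatin, with limma differences of 1.22, 1.83, 1.08, 1.83 and 1.58 on the log2(TPM + 1) scale and adjusted p of at most 6.5e-07. The signs for Flii and Mybbp1a also changed under other settings of the count fit.

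**Figure D3:**
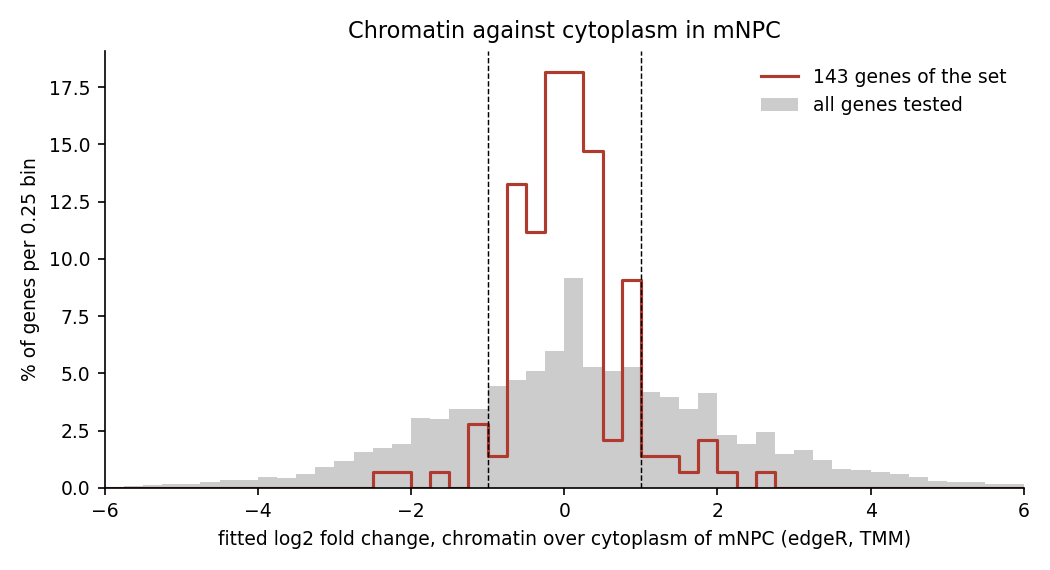
Distribution of the fitted log2 fold change of chromatin over cytoplasm in mNPC, as the percentage of genes in bins of 0.25, for all 18226 genes tested (grey bars) and for the 143 genes (red line). Dashed lines mark the fold change of 1 in size that a call needs. The red line is concentrated between the dashed lines and is centred near 0. Of the 127 genes of the set that were not called, all but Misp lie between the lines. Misp is at 1.82 (edgeR adjusted p = 0.46).

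Nucleoplasm and cytoplasm of mNPC separated few of the genes. In that comparison 11 of the 143 were called higher in nucleoplasm, beside 16.4% of all genes tested, and 3 lower, beside 8.56%. Those higher included Prpf8, Cltc, Cad, Snrnp200 and Nes. Prpf8, the core scaffold of the spliceosome, had 345, 411 and 455 CPM in nucleoplasm and 202, 166 and 86.8 CPM in cytoplasm, with a fitted log2 fold change of 1.68 ± 0.23 (edgeR adjusted p = 5.7e-07). The groups did not overlap, and cytoplasm library 3 was the lowest. Without that library 7 genes were called higher, and without mNPC nucleoplasm library 3 17 were called higher. Library totals alone gave 6 higher and 13 lower, where 13% and 17.8% of all genes were called.

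Between chromatin and nucleoplasm of mNPC, 14 genes were called higher on chromatin, beside 22.7% of all genes tested, and 12 lower, beside 21.7%. These counts depended on the scaling: library totals alone gave 44 higher and 4 lower, against 36.6% and 13.4% of all genes, and leaving out the mESC libraries numbered 1 gave 5 and 19. The count of higher genes was 4, 7 and 5 without mNPC nucleoplasm libraries 1, 2 and 3, and the count of lower genes was 19 and 21 without libraries 2 and 3.

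Nucleoplasm offered the second test, between the end-point cell types. In mCtx against mESC nucleoplasm 25 of the 143 genes (17.5%) were called higher, beside 28.9% of all genes tested and 23.1% of the 8377 genes. A further 46 (32.2%) were called lower, beside 34.1% and 25.1%. The median fitted log2 fold change was -0.40 in the set, -0.20 over all genes tested and -0.10 over the 8377 genes. Calls went both ways in the set, as they did over all genes tested, and the share called lower was near that of all genes tested. The test is not fully independent of the rule. In mESC, deviations from the group means correlated at 0.663, 0.336 and 0.592 between same-numbered nucleoplasm and cytoplasm libraries. The set also had a median log2 difference of -2.22 in cytoplasm, so more lower than higher calls may follow in part from the choice of genes. Scaling by library totals moves the median of all genes to -0.48 and changed neither count by more than 1.5 times.

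The largest decreases named by the rule were in Rest, Polr3g and Rarg. Rest, the repressor of neuronal genes in non-neuronal cells, had 250.4, 252 and 264 CPM in mESC nucleoplasm and 16.6, 14.5 and 13.7 CPM in mCtx nucleoplasm, a fitted log2 fold change of -3.81 ± 0.17 (edgeR adjusted p = 5.1e-17). Its mESC cytoplasm held 434, 359.7 and 411 CPM and its mCtx chromatin and cytoplasm 30.8 ± 1.26 and 13.3 ± 1.92 CPM (SD, n = 3). The level thus was far lower in mCtx in every fraction, and within mCtx the chromatin level was the highest. Polr3g, a subunit of RNA polymerase III that is abundant in stem cells, had 41.7, 73 and 79.2 CPM in mESC and 4.24, 4.06 and 3.93 CPM in mCtx nucleoplasm, a change of -3.72 ± 0.28 (edgeR adjusted p = 3.2e-12). Rarg, a retinoic acid receptor, had 83.5, 99.7 and 152 CPM and 6.19, 8.06 and 7.82 CPM, a change of -3.65 ± 0.27 (edgeR adjusted p = 1.7e-12). No library of the 2 cell types overlapped in these genes.

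Adamts3, a procollagen peptidase, rose most in nucleoplasm, from 2.85, 4.10 and 3.01 CPM in mESC to 75.9, 66.1 and 72 CPM in mCtx, a fitted log2 fold change of 4.71 ± 0.19 (edgeR adjusted p = 5.3e-18). Its mESC ratio of -1.08 rested on low levels, with 3.31, 2.33 and 2.0043 CPM on chromatin and 5.48, 5.34 and 5.62 CPM in cytoplasm. Nos1ap, an adaptor of neuronal nitric oxide synthase, had 3.88, 7.81 and 7.98 CPM and 52.9, 50.6 and 49.7 CPM, a change of 3.23 ± 0.26 (edgeR adjusted p = 1.3e-11); an unnamed gene that overlaps it on the same strand had 29.8% as many counts. Aacs, the acetoacetyl-CoA synthetase that feeds ketone bodies into lipid synthesis, had 16.7, 27.7 and 27.9 CPM and 173, 184 and 174 CPM, a change of 3.15 ± 0.23 (edgeR adjusted p = 1.1e-12). For all 3 genes each mCtx library was above each mESC library.

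The genes were then read against 23 lists of gene function with 1452 genes in all, and 65 of the 143 were found in a list. Ribosome biogenesis held the most, 13 of its 65 genes that met the level minimums (20.0%). These were Ddx10, Ddx27, Heatr1, Heatr3, Ltv1, Mybbp1a, Nol10, Nol6, Nol9, Rrp12, Rrp9, Tcof1 and Wdr3. The whole list moved from a median ratio of -0.55 in mESC through 0.35 in mNPC to 1.10 in mCtx, and 64 of its 65 genes had a higher ratio in mCtx than in mESC, as did 4054 of the 8377 genes (48.4%). The rule fixed that direction for the 13 genes of the set, and without them it was 51 of 52. For the 13 genes, the median log2 difference of mCtx from mESC was -0.95 on chromatin and -3.02 in cytoplasm. In nucleoplasm 8 of the 13 were called lower in mCtx and the other 5 in neither direction, and over the whole list 39 of 65 were lower and 1 higher. In mNPC, Heatr1 and Wdr3 were called higher on chromatin, and over the whole list 14 of 65 were higher and 8 lower.

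Mybbp1a, a nucleolar protein that binds MYB and takes part in ribosomal RNA processing (chr11:72441355-72451768, plus strand), was the most abundant of these 13. Its mESC cytoplasm held 1285, 1830 and 1780 CPM and its mESC chromatin 661, 889.9 and 763 CPM. In mCtx the cytoplasm held 41.5, 51.1 and 51 CPM and chromatin 177, 187 and 190.1 CPM. Both fractions were lower in mCtx without overlap, and cytoplasm by far the more. Tcof1, the nucleolar factor treacle, had 378, 479.6 and 587 CPM in mESC cytoplasm and 23.8, 29.1 and 29.8 CPM in mCtx cytoplasm, and 198, 225 and 269 and 50.02, 58.7 and 59.2 CPM on chromatin. Rrp12, which helps export ribosomal subunits, had ratios of -0.74, 1.21 and 2.08 in mESC, mNPC and mCtx.

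Of the 10 ribosome biogenesis genes of the set that have an entry in the RefSeq promoter table (GRCm38.p6), 3 held the 8 letters CCGGAAGT, a core site of ETS factors, on either strand within 250 bases before the gene start. Those windows are shown because they come from the functional group with the most genes of the set. Each is given 5′ to 3′ on the gene's strand, with the motif or its reverse complement in capitals. The Heatr1 window is chr13:12395125-12395374 (plus strand), that of Ltv1 chr10:13193138-13193387 (minus strand) and that of Nol10 chr12:17348243-17348492 (plus strand).
Heatr1: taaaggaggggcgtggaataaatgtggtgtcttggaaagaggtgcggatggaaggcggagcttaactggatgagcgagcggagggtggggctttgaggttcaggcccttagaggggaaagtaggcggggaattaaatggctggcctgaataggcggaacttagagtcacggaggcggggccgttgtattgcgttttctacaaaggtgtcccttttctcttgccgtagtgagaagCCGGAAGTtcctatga
Ltv1: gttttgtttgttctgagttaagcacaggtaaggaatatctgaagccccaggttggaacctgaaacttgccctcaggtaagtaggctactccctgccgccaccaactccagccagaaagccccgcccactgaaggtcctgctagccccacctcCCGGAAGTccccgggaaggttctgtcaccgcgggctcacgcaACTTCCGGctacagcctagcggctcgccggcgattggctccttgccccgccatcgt
Nol10: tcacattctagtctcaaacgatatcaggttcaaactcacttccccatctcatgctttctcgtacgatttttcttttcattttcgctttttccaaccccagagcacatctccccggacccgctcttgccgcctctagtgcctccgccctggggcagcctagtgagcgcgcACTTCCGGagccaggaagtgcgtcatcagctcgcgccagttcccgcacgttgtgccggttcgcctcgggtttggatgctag
The motif began 16 bases before the start in Heatr1, 98 and 56 bases before it in Ltv1, and 81 bases before it in Nol10. It was found in 17.5% of 57 promoters of the whole ribosome biogenesis list, 9.73% of 113 genes of the set with an entry, 8.21% of 6739 of the genes that met the level minimums and 3.23% of all 27025 genes in the table. For 8 other motifs, searched on both strands in the same window, the shares in the set are given against those in the genes that met the level minimums, as a description. CACGTG was in 9.73% against 10.8%, CCAAT in 34.5% against 41.2%, GGGCGG in 74.3% against 69.5%, and TATAAA in 3.54% against 6.28%. The rarer TGACGTCA was in 3.54% against 3.47%, AAGATGGC in 3.54% against 2.91%, the NRF1 palindrome in 1.77% against 2.34%, and TTCAGCACC in 0 of 113 genes against 0.341%. Their shares among all genes in the table were 6.86%, 37.5%, 35.4%, 14.3%, 1.77%, 1.83%, 0.877% and 0.348% in the order given. The median GC content of the windows was 59.2% in the set and 61.2% in the genes that met the level minimums.

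The list of splicing and pre-mRNA processing contributed 7 genes, 8.97% of its 78 that met the level minimums: Aqr, Cpsf3, Dhx16, Gemin5, Prpf6, Prpf8 and Snrnp200. Cpsf3 is the endonuclease that cleaves transcripts before polyadenylation. Eftud2, Sart1 and Xab2, which also act in the spliceosome, are in the set but not in the list. Prpf8 (chr11:75486816-75509449, plus strand) had 1211, 1488 and 1503 CPM in mESC cytoplasm and 557, 667 and 641 CPM on mESC chromatin. In mCtx it had 90.7, 102 and 118 CPM in cytoplasm, 245, 243 and 259 CPM on chromatin and 352, 352 and 384 CPM in nucleoplasm. The mCtx nucleoplasm was thus above mCtx chromatin in each library, as it was for Snrnp200, the helicase that unwinds U4 from U6, at 211, 216 and 219 CPM in nucleoplasm and 135, 132 and 146 CPM on chromatin. In the nucleoplasm test 2 of the 7, Dhx16 and Gemin5, were called lower in mCtx and the other 5 in neither direction, and the whole list had 5 of 81 higher and 9 lower. The whole list had median ratios of 0.28, 1.16 and 1.36 in mESC, mNPC and mCtx. On mNPC chromatin against cytoplasm 36 of 81 in the list were higher and 11 lower, but none of the 7 was called by edgeR or by DESeq2. At an unadjusted p under 0.05, 1 of the 7 was higher by edgeR and 2 by DESeq2, and limma on log2(TPM + 1) called 5 of them higher.

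Translation factors and tRNA synthetases gave 6 genes, 10.0% of 60: Eef2k, Eprs, Farsa, Iars, Mars and Qars, of which 5 charge tRNAs and Eef2k encodes the kinase of elongation factor 2. The list as a whole stayed cytoplasmic in median, at -1.13, -0.79 and -0.15. Eprs, the glutamyl-prolyl-tRNA synthetase, had 567, 457 and 539 CPM in mESC cytoplasm and 61.7, 45.8 and 61.8 CPM in mCtx cytoplasm, beside 307, 341 and 343 and 211, 193 and 204 CPM on chromatin. Iars, the isoleucyl-tRNA synthetase, had 565, 498 and 564 and 53, 54.9 and 57.5 CPM in cytoplasm and 266, 257 and 288 and 137, 132 and 132 CPM on chromatin. Both genes were lower in mCtx in both fractions with no overlap. In nucleoplasm Iars was called lower in mCtx, Eef2k higher, and the other 4 in neither direction, while the whole list had 2 of 62 higher and 22 lower.

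Nuclear envelope and pore genes numbered 5, 8.93% of 56: Lmna, Nup107, Nup133, Nup160 and Nup188. Nup107, Nup133 and Nup160 are part of the Y-shaped complex of the pore scaffold, Nup188 is part of its inner ring, and Lmna encodes lamin A and C. In nucleoplasm all 4 nucleoporins were called lower in mCtx and Lmna in neither direction, and the whole list had 2 of 58 higher and 25 lower. Nup133 had 317, 352 and 360.3 CPM in mESC cytoplasm and 19.8, 21.5 and 20.5 CPM in mCtx cytoplasm, and on chromatin 187, 208 and 221 and 57, 54.6 and 58.2 CPM. Nup188 had ratios of -0.97, 0.39 and 1.67, but Phyhd1 overlaps it on the same strand and had 41.9% as many counts.

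Genes of nucleotide, amino acid and one-carbon metabolism also numbered 5, 8.62% of 58: Amt, Asl, Cad, Mthfd1 and Mthfd1l. Their median cytoplasmic level was lower in mCtx than in mESC by a log2 difference of -4.16, and their chromatin level by -1.71. Mthfd1, the folate enzyme of the cytosol, had 339, 429 and 479 CPM in mESC cytoplasm and 22.9, 24.9 and 21.8 CPM in mCtx cytoplasm, beside 179.8, 239.8 and 295 and 62.9, 60.7 and 65.4 CPM on chromatin. In nucleoplasm 4 of the 5 were called lower in mCtx, as were 39 of 62 genes in the list, with 3 higher. Of the glycolysis and TCA cycle list, Gys1, Pfkl and Pfkm were in the set, 6.38% of 47. Pfkm, the muscle form of phosphofructokinase, differed from Pfkl in its level: mESC cytoplasm held 73.8, 82.7 and 72.1 CPM of Pfkm and 399, 575 and 616 CPM of Pfkl, whereas mCtx chromatin held 195, 201 and 194 and 101, 114 and 108 CPM. In nucleoplasm Pfkm was called higher in mCtx, at 2.62 ± 0.21 (edgeR adjusted p = 6.8e-12), and Pfkl in neither direction, at -0.89 ± 0.27 (edgeR adjusted p = 0.0039).

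Chromatin and transcription genes divided between those that rose and those that fell in nucleoplasm. The set included the histone modifiers Ehmt2, Hdac1, Kdm1a and Kdm5b, and of these Ehmt2 was called higher in mCtx nucleoplasm and Hdac1 lower. Ehmt2, the methyltransferase G9a of histone H3, had 442, 498 and 459 CPM on mCtx chromatin and 137, 160.5 and 158 CPM in mCtx cytoplasm. Its mESC values spread widely, with 94.3, 156 and 229 CPM on chromatin and 129, 259 and 317 CPM in cytoplasm. These groups overlapped, although in each pair of libraries with the same number chromatin was below cytoplasm. Kdm5b, a demethylase of histone H3, had 721, 541 and 568 CPM in mESC cytoplasm and 75, 73.6 and 76.3 CPM in mCtx cytoplasm, and its ratios were -1.10, 0.52 and 1.14.

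The remodelling ATPase Smarca4 was called higher in mCtx nucleoplasm, at 691, 709 and 739 CPM against 148, 251 and 251 CPM, a fitted log2 fold change of 1.99 ± 0.26 (edgeR adjusted p = 9.7e-08). The transcription list gave Cdk9, Gtf2i, Nelfa and Supt16, 6.56% of 61. Gtf2i, a general transcription factor, rose in nucleoplasm from 153, 174 and 154 CPM to 272, 269.9 and 258 CPM, whereas Supt16, a subunit of the FACT histone chaperone, fell from 212, 350.4 and 353 CPM to 107, 100.3 and 93 CPM. The fitted changes were 1.02 ± 0.13 (edgeR adjusted p = 9.3e-08) and -1.34 ± 0.21 (edgeR adjusted p = 2.5e-06). The 2 cell types did not overlap in either gene.

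Vesicle and ubiquitin genes had cytoplasmic differences smaller than the median of the set. Ap1b1, Cog1, Copa and Trappc12 came from the trafficking list, 5.13% of 78, with a median cytoplasmic difference of -1.18 and a chromatin difference of 0.87. Copa, a coat protein of Golgi vesicles, had 153, 135 and 132 CPM on mESC chromatin and 382, 364 and 383 CPM on mCtx chromatin, against 351, 309.9 and 322 and 150.4, 171 and 173 CPM in cytoplasm. Smurf1, a ubiquitin ligase of TGF-beta signalling, was higher in mCtx in both fractions, with 211, 224 and 229 CPM on chromatin against 63.6, 43.1 and 35.3 CPM in mESC and 99.9, 110.0 and 119 CPM in cytoplasm against 94.1, 71.4 and 62.4 CPM. Its nucleoplasm rose as well, by 1.94 ± 0.15 (edgeR adjusted p = 3.8e-12). Of the Wnt components, Dvl2 had ratios of -1.07, 1.22 and 1.91, and Axin2, a scaffold and target of the pathway, -0.62, 0.88 and 1.38.

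The lists of proliferating cells are given beside the 1.71% that the set makes up of all 8377 genes. The DNA replication list gave Lig1, a DNA ligase, 1.82% of its 55 genes. The DNA repair list gave Msh6 and Xrcc6, 3.13% of 64. Msh6, a mismatch repair protein, had 739, 802 and 827 CPM in mESC cytoplasm and 21.1, 18.7 and 23.9 CPM in mCtx cytoplasm, and 446, 505 and 454 and 50.7, 45 and 44.7 CPM on chromatin. Both fractions were lower in mCtx with no overlap. The lists of mitosis, pluripotency, centrosome and cilium, mTOR and lysosome, and circadian and stress factors held no gene of the set among 56, 11, 72, 66 and 27 genes that met the level minimums.

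**Figure D4:**
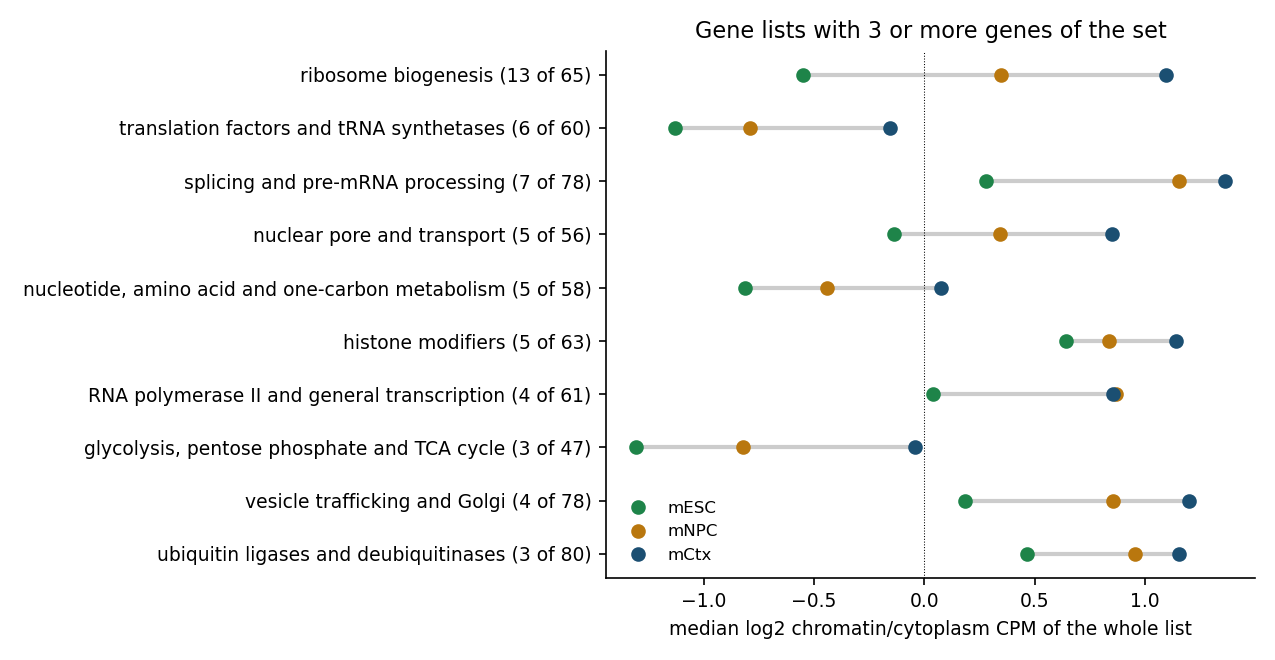
Median log2 chromatin-to-cytoplasm CPM ratio of all genes of a function list that met the level minimums (horizontal axis), in mESC, mNPC and mCtx, for the lists with 3 or more genes of the set. The numbers after each name give the genes of the set and those that met the minimums. Ribosome biogenesis has the largest share and runs from -0.55 to 1.10, while translation factors and glycolysis stay at or below 0 in all 3 cell types.

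The deposited TPM table, made from the same libraries by transcript quantification, gave a second reading of the same RNA. All 143 genes had a log2 TPM ratio of chromatin to cytoplasm above 0 in mCtx, and 142 reached 1. In mESC 114 were below 0 and 68 were at -0.5 or less, so 68 genes met both ratio limits in TPM. The ratio was higher in mCtx than in mESC in 143 of 143 genes, which were chosen for this direction in the same libraries, where 4982 of 8375 genes at the level minimums with TPM values had a higher ratio. Median TPM ratios were -0.47, 1.03 and 2.00 in mESC, mNPC and mCtx, each above the CPM ratio. Over the genes that met the level minimums they were 0.32, 0.60 and 0.63. In mNPC, 73 genes reached a TPM ratio of 1, against 23 by CPM. With limma on log2(TPM + 1), 69 of the 143 were called higher on mNPC chromatin and 2 lower, where 41% and 8.5% of 24419 genes were. On that scale the median of all genes was 0.76.

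Mov10 had TPM ratios of -0.95, 1.74 and 5.04, near its CPM ratios of -1.31, 1.25 and 4.61. Lrp1b and Adamts3 had mESC ratios with the other sign in TPM, at 1.38 and 1.04. Nes differed in mNPC, at -1.17 in TPM and 0.35 in CPM.

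**Figure D5:**
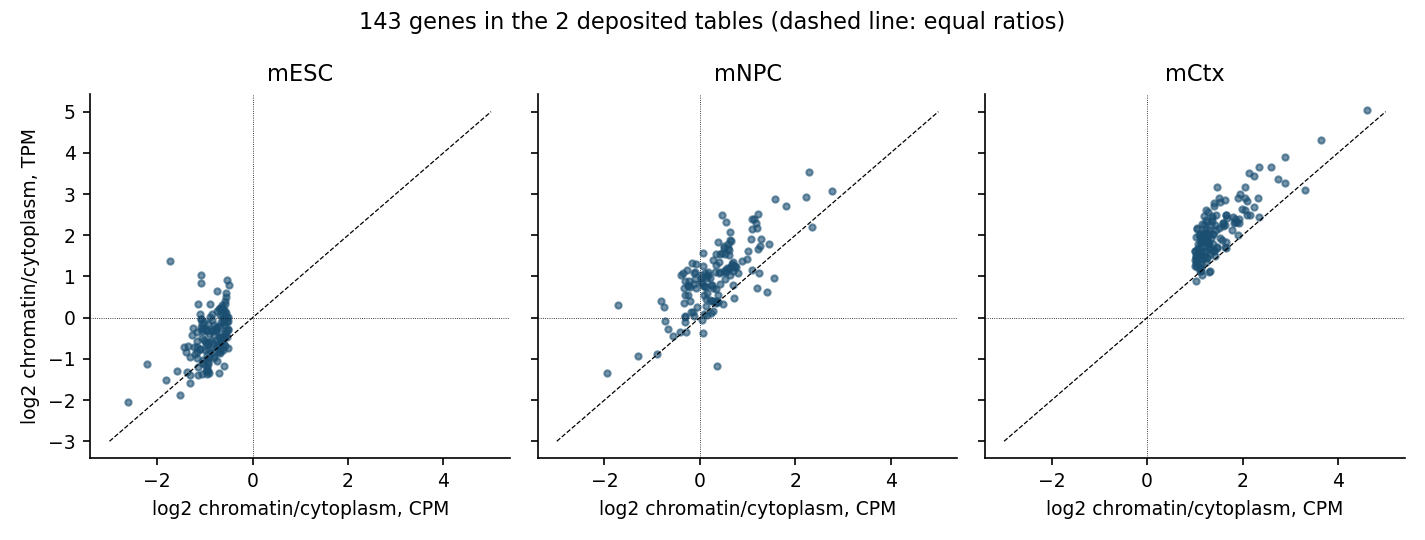
Log2 chromatin-to-cytoplasm ratio of each of the 143 genes in CPM (horizontal axis) and in TPM (vertical axis), 1 panel per cell type, with dashed lines at equal ratios. Most points lie above the dashed line, and all mCtx points are above 0 in TPM, whereas the mESC points fall on both sides of 0, with 114 below.

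The genes shared features of structure that the rule did not use. In the GENCODE M21 annotation their median number of exons in the transcript with the most was 18, against 10 in the 8377 genes, and 122 of 143 (85.3%) had 10 or more exons, against 55.0%. The gene span differed less, with medians of 30435 and 25744 bases, as did the exonic length, with 5430 and 4837 bases. A transcript annotated as having a retained intron was listed for 77.6% of the set and 66.5% of the 8377 genes. The 446 genes that met the reverse rule, on chromatin in mESC and cytoplasmic in mCtx, had a median of 7 exons, and 44.8% had such a transcript. Chromosome 11 carried 20 of the 143 genes (14.0%), against 8.75% of the 8377. Same-strand overlap with another gene touched 17 genes of the set, and in 4 of them, Lrp1b, Mvp, Nos1ap and Nup188, the other gene had over 10% as many counts.

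Which genes belong to the set depended on the scale of the counts. With CPM taken by TMM-scaled library sizes, the same limits gave 220 genes, of which 74 were among the 143, and with TPM 195 genes, of which 66 were.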

How the data were processed

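Read counts per gene and TPM per gene were deposited for 27 libraries. Per the file headers, the count table has chromatin columns under the abbreviation Chr beside those of nucleoplasm and cytoplasm, and all deposited counts were whole numbers. The TPM values were deposited by the authors in a separate table. STAR, featureCounts and kallisto 0.43.0 with the build mm10 are named in the submitters' processing notes, with no options. Neither the annotation release nor the transcript set is given in these sources. Each gene's listed length in the count table is its whole span. From that length alone, introns may lie inside the counted region, but no source states the counting options.

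CPM are counts over library totals. Tests used edgeR 4.0.16 in R 4.3.3, with filterByExpr on 9 groups (18226 genes, all 143 among them), TMM scaling, 1 quasi-likelihood fit of the 27 libraries with a mean per group, and Benjamini-Hochberg adjustment. The SE is the fitted log2 fold change divided by the square root of F. The fitted values are on the TMM scale and the ratios on the scale of library totals, so the 2 can differ for a gene. The fit was tested on simulated counts. TPM were tested with limma 3.58.1 on log2(TPM + 1) for genes of at least 1 TPM in 3 libraries. Symbols, biotypes and exons came from GENCODE M21, and 35533 of 37332 genes matched.

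The 143 genes, the function lists and the marker lists were chosen with earlier results of these data known, so neither their pattern nor a list's share is independent evidence. Motifs and the promoters shown were chosen after the values were seen. Named genes were the 10 with the largest shift among those with at least 10 CPM in mESC cytoplasm and on mCtx chromatin and no overlap between chromatin and cytoplasm libraries in mESC or in mCtx, the 5 most abundant, the extreme calls in mNPC (4 each way) and in nucleoplasm (3 each way), the 2 most abundant of each list with at least 2 genes of the set, and those nearest to a limit. Other named genes are members of short lists or of counts given in full. Some genes of the set are not reported here by name. P-values of the main fit rest on the spread between the 3 libraries of a group, pooled over all 9 groups, also those not compared. Alternatives were RLE size factors, library totals, other filters, DESeq2 1.42.0, a fit of only the compared libraries, a replicate block, no minimum fold change, TPM, and leaving out libraries.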

Additional observations from a re-analysis of the deposited data

How the results depend on the processing

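The choice of genes moved most with the scale: TMM-scaled CPM gave 220 genes (74 of them among the 143) and TPM 195 (66 among the 143), while leaving out 1 library at a time gave 140 to 163. For chromatin over cytoplasm of mNPC, 9 genes were called higher and 7 lower. Library totals alone gave 23 and 3, log2(TPM + 1) with limma 69 and 2, log2(TPM + 0.1) 75 and 2, and no minimum fold change 32 and 37. Leaving out libraries gave 8 to 12 and 5 to 9. For nucleoplasm over cytoplasm of mNPC, with 11 and 3, library totals gave 6 and 13, TPM 3 and 10 or, with the smaller pseudocount, 6 and 12, and no minimum fold change 24 and 35. A filter of at least 1 CPM in 3 libraries gave 17 higher, and left-out libraries 7 to 17 and 0 to 4. For chromatin over nucleoplasm of mNPC, with 14 and 12, library totals gave 44 and 4, TPM 92 and 1 or 97 and 2, no minimum fold change 45 and 33, the 1 CPM filter 6 and 19, and RLE size factors and DESeq2 7 higher each. Without the mESC libraries numbered 1 the counts were 5 and 19, and left-out libraries gave 4 to 15 and 11 to 21. For mCtx against mESC nucleoplasm, with 25 and 46, no minimum fold change gave 42 and 71 and left-out libraries 22 to 26 and 44 to 51. The cause of these shifts was not tested.

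Some single genes changed sign for chromatin over cytoplasm of mNPC. Amt went from -0.43 to 1.08 and 1.09 in TPM with the larger and the smaller pseudocount, and Pfkl from -2.03 to 0.29 and 0.30. Flii went from 0.07 to -0.049 with the 1 CPM filter, -0.027 with only the libraries compared and -0.064 without the mESC libraries numbered 1, and ran from -0.062 to 0.17 as libraries were left out, but was 1.83 and 1.86 in TPM. Mybbp1a went from 0.11 to -0.0072 with the 1 CPM filter and -0.022 without the mESC libraries numbered 1, and ran from -0.092 to 0.31 as libraries were left out, but was 1.58 and 1.60 in TPM. Mars and Cad, at 0.32 each, were 1.22 and 1.83 on log2(TPM + 1). Among all 48 named genes in this comparison, signs changed in 38 of 96 values from TPM and in 32 of 672 from counts. In 16 of those 38 the gene was called in the main fit or in the alternative. For chromatin over nucleoplasm of mNPC, signs changed in 56 of 96 and 50 of 672 values, and 34 of those 56 involved a call. The counts were 14 of 96 and 91 of 670 for nucleoplasm over cytoplasm of mNPC. For nucleoplasm of mCtx against mESC they were 0 of 96 and 3 of 672.

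Whether replicate numbers pair the mNPC fractions is unclear. Deviations from the group means correlated at 0.099, 0.137 and 0.033 in same-numbered mNPC chromatin and cytoplasm libraries, and at -0.127 to 0.024 in unlike-numbered ones. Same-numbered values were 0.253, 0.037 and 0.132 for chromatin and nucleoplasm, but 0.118, -0.047 and -0.117 for nucleoplasm and cytoplasm. In mESC same-numbered chromatin and cytoplasm libraries gave 0.615, 0.31 and 0.553, so there the numbers pair the fractions, but no test compared mESC fractions. With the replicate number as a block the counts for mNPC were 9 and 7, 11 and 3, and 14 and 13, and for the nucleoplasm of mCtx against mESC 25 and 46.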
